A study of Oreochromis niloticus with 6 samples.

Results

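The exocrine pancreas enzymes were followed here in liver RNA of GIFT, a strain of the Nile tilapia Oreochromis niloticus bred for farming. Members were taken by gene name alone: the symbols of trypsins and related serine proteases (prss, try), chymotrypsins, pancreatic elastases, carboxypeptidases A and B, bile salt-activated lipase (cel), pancreatic amylase, phospholipase A2 of group IB (pla2g1b), pancreatic lipase and colipase. Of the 31872 loci in the table of expression values, 18 carried such a name. Of these, 13 carried names of digestive enzymes of acinar cells and are called the digestive enzyme loci, a name that rests on the symbol alone. The other 5 were serine proteases that share only the prss prefix (prss12, PRSS23, prss23, prss35 and prss16). No symbol in the table used matched the patterns for chymotrypsin, amylase, pancreatic lipase or colipase, so loci with the enzyme numbers of chymotrypsin and amylase are described after the members.

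Acinar cells of the exocrine pancreas make and store digestive enzymes, most proteases among them as inactive zymogens, and release them towards the gut. There trypsin, itself activated from trypsinogen, activates the other zymogens. In many bony fishes the pancreas is not a compact organ, and exocrine tissue lies scattered in the mesentery, along the gut and along vessels inside the liver, which is then called a hepatopancreas. A liver sample of such a fish can therefore hold exocrine tissue. In bulk RNA, fewer acinar cells and less enzyme RNA per acinar cell cannot be told apart.

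There were 6 libraries, 3 labelled HG and 3 labelled CG, written below as HG-1 to HG-3 and CG-1 to CG-3. HG stands for liver of fish held for 96 h in water whose dissolved oxygen (DO) had been lowered with nitrogen to 0.7 to 0.8 mg/L, and CG for liver of fish held at 5 mg/L DO and sampled at the same time. All fish were GIFT, the labels give no genotype or age, and the labels do not say whether a library came from 1 fish or from a pool. Each value is in FPKM, fragments scaled to transcript length and to the mapped fragments of the library, so that levels of different genes are per length. The sum of all loci lay between 459912 and 475226 FPKM in the libraries labelled HG and between 474946 and 493870 FPKM in those labelled CG. The table of values holds no read counts per locus, so no counting error is given.

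A list of genes known to be switched on in low oxygen ran mostly against the labels. Of 13 loci of genes that the hypoxia-inducible factor (HIF) is known to switch on, 12 were lower and 1 was higher in the libraries labelled HG (limma, adjusted p under 0.05). Over all tested loci, 12.1% were lower and 8.27% higher. Some genes on this list, igfbp1a and ddit4, had more than 1 locus. Of the 12 lower loci, ddit4 (MSTRG.14744), p4ha1b, epoa and the igfbp1a loci had means under 1 FPKM in HG. These passed the minimum for testing through CG, while the rest of the list averaged more than 1 FPKM in both groups. The list was chosen with earlier results of these data known, so it is not an independent check on the labels. The HIF target egln3, a prolyl hydroxylase that limits HIF, had 2.61, 1.81 and 1.86 FPKM in HG-1 to HG-3, against 375, 212 and 239 FPKM in CG-1 to CG-3. The stress gene ddit4 had 0.536, 0.295 and 0.022 FPKM in the libraries labelled HG, against 589, 492 and 676 FPKM in those labelled CG. Whether the labels are right was not tested, and every direction below is that of the library labelled HG relative to the library labelled CG. The liver origin itself was plain: 33 of 35 loci on a list of hepatocyte markers were above the minimum for testing, with sums of 72618 to 86122 FPKM in libraries labelled HG and 54977 to 75313 FPKM in those labelled CG.

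The digestive enzymes were lower in the libraries labelled HG, and they differed widely between libraries of the same label. Their 13 loci summed to 306.7, 509.1 and 1653 FPKM in HG-1, HG-2 and HG-3, against 3027, 4658 and 6302 FPKM in CG-1, CG-2 and CG-3. Every library labelled HG was below every library labelled CG. The means were 823 ± 726 FPKM in HG and 4662 ± 1638 FPKM in CG (SD, n = 3 each), a mean 5.67 times as high in the libraries labelled CG and a log2 ratio of -2.50 for HG against CG. The sum was 5.39 times as high in HG-3 as in HG-1 and 2.08 times as high in CG-3 as in CG-1. As a percent of all FPKM in the library, the digestive enzymes made up 0.0646%, 0.111% and 0.348% in HG-1 to HG-3, against 0.637%, 0.943% and 1.31% in CG-1 to CG-3. No test was run on the sum.

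**Figure D1:**
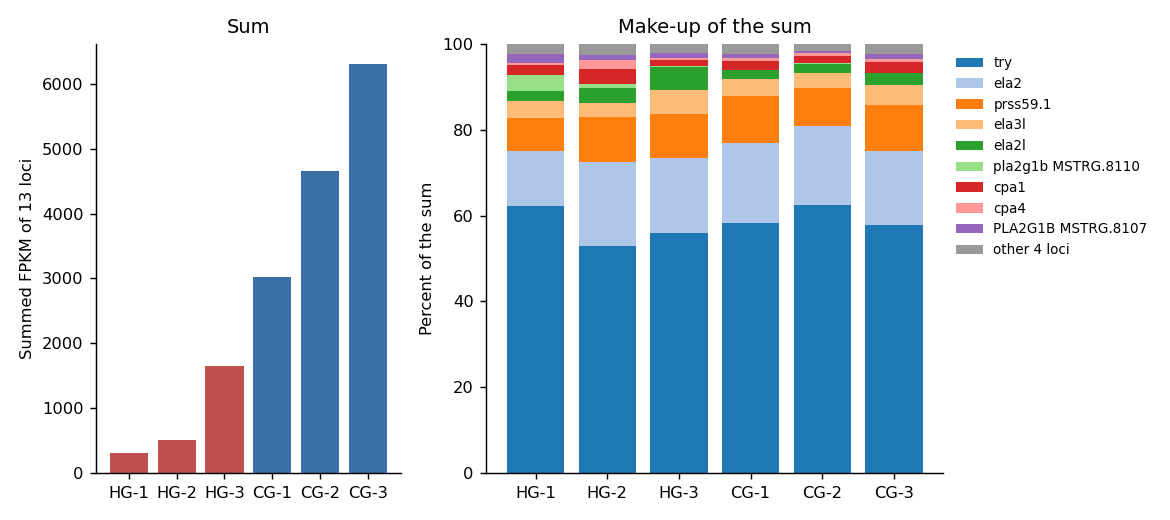
The left panel shows the summed level of the 13 digestive enzyme loci in each library, in FPKM on an axis from 0, as 1 bar per library, and the right panel shows what percent of that sum each locus gave. The bars of the libraries labelled HG end at 306.7, 509.1 and 1653 FPKM and those labelled CG at 3027, 4658 and 6302 FPKM, while try gives between 52.9% and 62.5% of each bar.

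Trypsins formed the bulk of the sum. The locus try (MSTRG.24636), a trypsin precursor and by far the most abundant member, had 191, 269 and 923 FPKM in HG-1, HG-2 and HG-3, against 1764, 2913 and 3638 FPKM in CG-1, CG-2 and CG-3. The groups did not overlap, and HG-3 was well above the other libraries labelled HG. The log2 fold change on the log2(FPKM + 1) scale was -2.87 with a standard error (SE) of 0.60, and limma gave an adjusted p of 0.0196 over the 16423 loci tested. Ranked by FPKM within a library, try stood at place 315 in HG-1, 242 in HG-2 and 100 in HG-3, against places 32, 19 and 16 in CG-1, CG-2 and CG-3. The second trypsin, prss59.1 (MSTRG.23410), named after the trypsin family of zebrafish, had 23.9, 53.5 and 172 FPKM in the libraries labelled HG, against 327, 416 and 669.9 FPKM in those labelled CG. Its log2 fold change was -2.87 (SE 0.69, adjusted p = 0.0300), with no overlap and the same order of libraries as try. The ratio of prss59.1 to try was 0.125, 0.198 and 0.187 in HG-1 to HG-3, against 0.185, 0.143 and 0.184 in CG-1 to CG-3, so the groups overlapped in the mix of both trypsins. Trypsins are a family of close copies, and reads shared between copies could have been assigned to either.

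Elastases are proteases that are stored as proelastases. The locus ela2 (MSTRG.7351) had 39.3, 99.4 and 289 FPKM in HG-1, HG-2 and HG-3, against 566, 855 and 1094 FPKM in CG-1, CG-2 and CG-3. It was lower in the libraries labelled HG, with a log2 fold change of -2.94 (SE 0.69, adjusted p = 0.0275) and no overlap of the groups, the largest decrease among the members. The locus ela3l (MSTRG.15454) had 12.2, 17.2 and 92.1 FPKM in HG and 125, 163 and 299.6 FPKM in CG, a log2 fold change of -2.70 (SE 0.75, adjusted p = 0.0457). Here the gap between HG-3 and CG-1 was small beside the spread within each label.

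The elastase ela2l (MSTRG.7352), a copy of ela2 whose gene lies next to it in the RefSeq annotation of O_niloticus_UMD_NMBU, did not pass the test. It had 7.27, 17.6 and 88.3 FPKM in HG-1, HG-2 and HG-3, against 58.7, 97.8 and 171 FPKM in CG-1, CG-2 and CG-3. The groups overlapped, with HG-3 above CG-1. The log2 fold change was -2.07 (SE 0.86, adjusted p = 0.132). The ratio of ela2l to ela2 was 0.185, 0.177 and 0.305 in the libraries labelled HG, against 0.104, 0.114 and 0.157 in those labelled CG, which did not overlap. Reads shared by these neighbouring copies could move this ratio. The remaining elastase, CELA3A (ENSONIG00000003112), was close to 0 and was not tested. It was listed at 0, 0 and 0.0275 FPKM in HG and at 0.448, 0.00353 and 1.15 FPKM in CG.

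All of the carboxypeptidases were lower in the libraries labelled HG. These zinc enzymes remove amino acids from the end of peptides, the A forms preferring hydrophobic residues and the B form basic ones. Carboxypeptidase A1, cpa1 (MSTRG.11872), had 6.74, 16.98 and 22.7 FPKM in HG-1, HG-2 and HG-3, against 62.5, 79.9 and 161 FPKM in CG-1, CG-2 and CG-3. It had the smallest adjusted p of the members (log2 fold change -2.66, SE 0.52, adjusted p = 0.0154). The gene cpb1 (MSTRG.1800) had 3.67, 7.72 and 19.6 FPKM in HG, against 37.5, 49.2 and 99.1 FPKM in CG (log2 fold change -2.62, SE 0.60, adjusted p = 0.0257). The gene cpa4 (MSTRG.18558) had 1.40, 11.4 and 7.09 FPKM in HG, against 19.5, 33.7 and 51.4 FPKM in CG (log2 fold change -2.43, SE 0.64, adjusted p = 0.0408). None of these overlapped between groups, and cpa4 was the only carboxypeptidase in which HG-2, not HG-3, was the highest library labelled HG. The ratio of cpa1 to cpb1 was 1.83, 2.201 and 1.16 in HG-1 to HG-3, against 1.67, 1.62 and 1.62 in CG-1 to CG-3.

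The lipid-digesting enzymes behaved less evenly. Bile salt-activated lipase, cel.2 (MSTRG.2811), which splits cholesterol esters and other fats, had 3.19, 5.46 and 14.0 FPKM in HG-1, HG-2 and HG-3, against 31.0, 28.5 and 53.0 FPKM in CG-1, CG-2 and CG-3. It was lower in the libraries labelled HG without overlap (log2 fold change -2.33, SE 0.49, adjusted p = 0.0209). A second locus of the same name (MSTRG.2812) was too low to be tested, with 0.382, 0.397 and 2.09 FPKM in HG and 0.768, 0.144 and 0 FPKM in CG.

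The 2 loci of the phospholipase A2 of group IB, the secreted enzyme that acts on phospholipids of the diet, ran in opposite directions. PLA2G1B (MSTRG.8107) had 6.58, 5.19 and 19.5 FPKM in HG-1, HG-2 and HG-3, against 31.9, 19.9 and 62.0 FPKM in CG-1, CG-2 and CG-3. The groups did not overlap, but HG-3 came close to CG-2, and the difference did not pass the test (log2 fold change -1.83, SE 0.57, adjusted p = 0.0636). The locus pla2g1b (MSTRG.8110) had 11.3, 5.08 and 3.03 FPKM in HG, against 2.42, 1.92 and 1.73 FPKM in CG. Here every library labelled HG was above every library labelled CG, and HG-1, the lowest library in the summed enzymes, was the highest. The log2 fold change was 1.16 (SE 0.40, adjusted p = 0.0855), which did not pass the test with all libraries and passed it without HG-3, with an adjusted p of 0.0496 in limma. The ratio of MSTRG.8107 to MSTRG.8110 was 0.579, 1.02 and 6.44 in HG-1 to HG-3, against 13.1, 10.4 and 35.8 in CG-1 to CG-3.

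**Figure D2:**
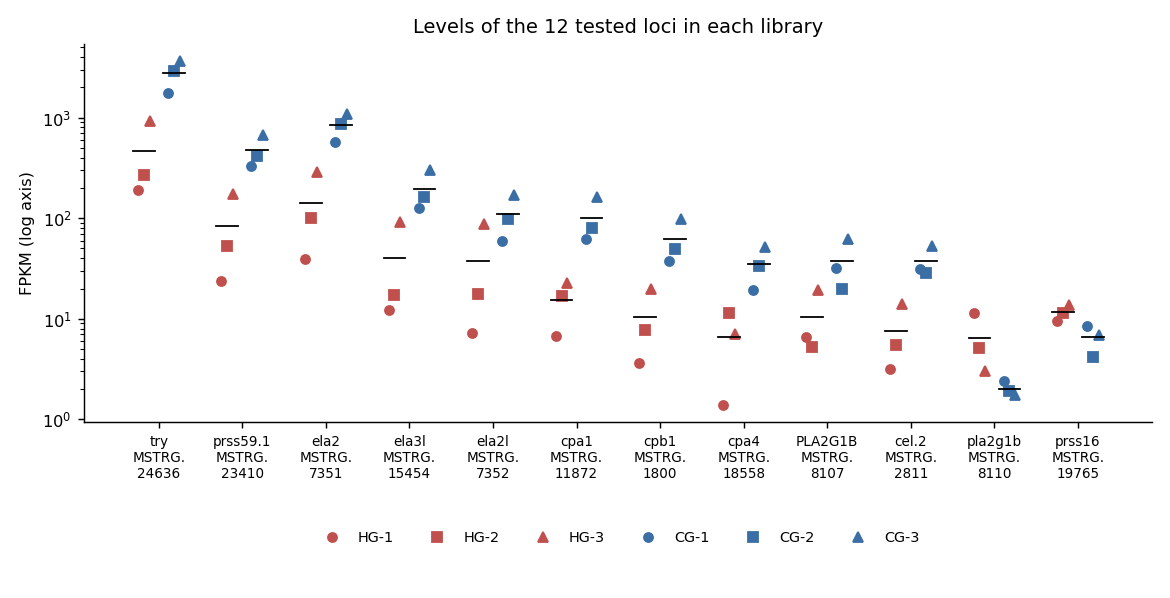
Level of each of the 12 tested loci in each library, in FPKM on a log axis, with 1 marker per library and a bar at the mean of each group of 3. In most loci the markers of HG lie below those of CG and HG-3 is the highest HG marker, whereas pla2g1b (MSTRG.8110) and prss16 have all HG markers above the CG markers.

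Of the loci that share only the prefix prss, prss16 alone was tested, and it was not lower in the libraries labelled HG. The gene prss16 (MSTRG.19765), a serine protease of the thymus in mammals, had 9.54, 11.5 and 13.8 FPKM in the libraries labelled HG, against 8.48, 4.20 and 6.96 FPKM in those labelled CG, and did not pass the test (log2 fold change 0.77, SE 0.28, adjusted p = 0.0985). The others were under the minimum for testing. PRSS23 (MSTRG.8223) reached at most 2.12 FPKM, prss23 (MSTRG.7253) 0.314 FPKM, and prss12 (ENSONIG00000014590), a protease of neurons in mammals, 0.0360 FPKM. The locus prss35 (MSTRG.16357) had 2.58 FPKM in HG-3 and at most 0.140 FPKM in any other library.

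Across the whole set, 12 of the 18 loci averaged 1 FPKM or more across the 6 libraries and were tested, 11 of them digestive enzyme loci. Of these 11, 8 were lower in the libraries labelled HG at an adjusted p under 0.05 in limma, 0 were higher and 3 did not pass. Over all tested loci, 1990 of 16423, or 12.1%, were lower and 8.27% were higher by the same test. All 11 had an unadjusted p under 0.05, 10 of them lower and pla2g1b (MSTRG.8110) higher, against 6016 of all tested loci. In 9 of the 11 every library labelled HG was below every library labelled CG, which held for 27% of all tested loci, and 1 was above throughout, as were 16.5% of all. The median log2 fold change of the 11 was -2.62, with a range of -2.94 to 1.16, beside a median of -0.14 over all tested loci.

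Each of the 6 libraries mattered to the number of calls. With 1 library left out, the loci that passed as lower numbered 1 without HG-1, 2 without HG-2, 9 without HG-3, 3 without CG-1, 2 without CG-2 and 1 without CG-3. Over all 16423 tested loci, the number lower fell from 1990 to 804, 1252 and 1110 without HG-1, HG-2 and HG-3. It fell to 1219, 1374 and 1434 without CG-1, CG-2 and CG-3. A linear model per locus with the library size as a covariate, as in Ballgown, called 0 of the 11 (0 with an unadjusted p under 0.05, against 3583 of all tested loci), and the same model called 0 loci lower and 2 higher among all tested.

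**Figure D3:**
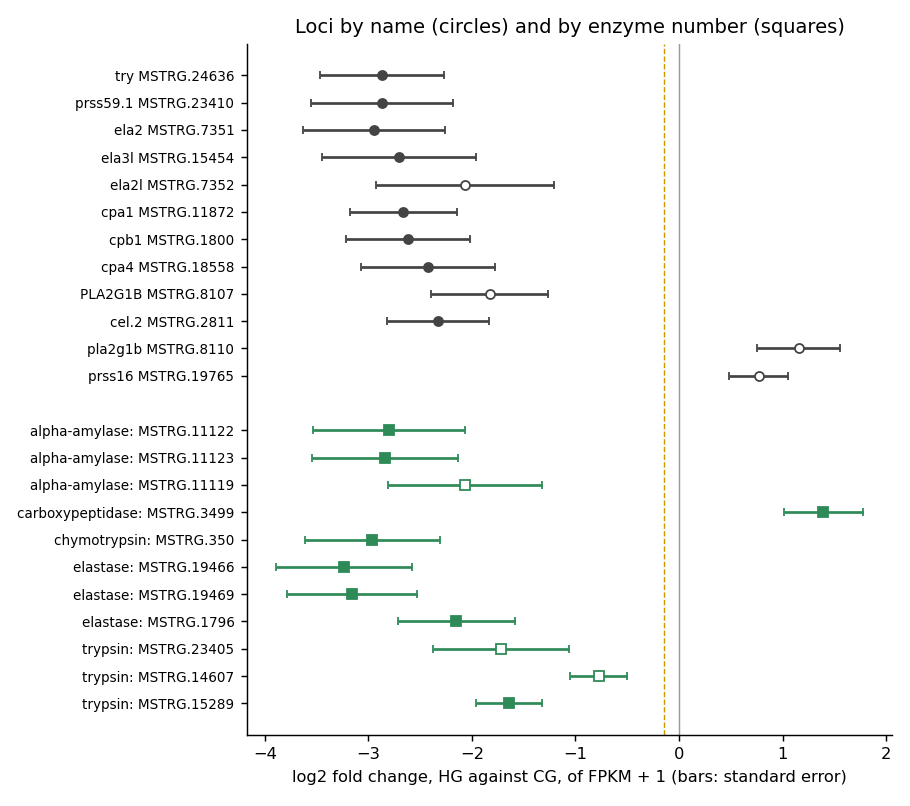
Log2 fold change for HG relative to CG, computed on log2(FPKM + 1) values, with bars of 1 SE, for the tested loci of the set (circles) and for the tested loci found by enzyme number (squares); filled symbols have an adjusted p under 0.05 and the dashed line marks the median of all tested loci at -0.14. Most symbols lie between -3.23 and -1.64, and pla2g1b (MSTRG.8110), prss16 and cpo (the carboxypeptidase MSTRG.3499) lie above 0.

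The lowest and highest library of the sum, HG-1 and CG-3, differed 20.5-fold. The shares of the trypsins, ela2, ela3l, cpb1 and cel.2 (MSTRG.2811) in the sum varied less than 2-fold between libraries, and those of the other tested loci varied more. The level of try differed 19.1-fold between its lowest and highest library, and its share, which is most of the sum and so has little room to move, 1.18-fold. The share of try was 62.2%, 52.9% and 55.8% in HG-1, HG-2 and HG-3, against 58.3%, 62.5% and 57.7% in CG-1, CG-2 and CG-3. The share of ela2 was 12.8%, 19.5% and 17.5% in HG and 18.7%, 18.3% and 17.4% in CG. The share of cpb1 varied 1.49-fold while its level varied 27.0-fold. The shares of cpa1, ela2l, PLA2G1B (MSTRG.8107) and cpa4 varied 2.43-, 2.75-, 5.02- and 5.21-fold. That of pla2g1b (MSTRG.8110) varied 134.5-fold, with 3.70%, 0.997% and 0.184% in HG-1 to HG-3, against 0.0801%, 0.0412% and 0.0275% in CG-1 to CG-3. Shares overlapped between the groups for all 13 digestive enzyme loci except pla2g1b (MSTRG.8110) and the low cel.2 locus MSTRG.2812, whose shares were higher throughout in HG. By role, the mean of the summed FPKM in CG over that in HG was 5.96 for trypsins, 5.18 for elastases, 6.11 for carboxypeptidases and 3.06 for lipases and phospholipases. Between HG-3 and HG-1 alone, the role sums differed 7.99-fold for elastases, 5.10-fold for trypsins, 4.18-fold for carboxypeptidases and 1.80-fold for lipases and phospholipases.

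Libraries of the same label differed more in most enzymes than in most other loci. The range over HG-1, HG-2 and HG-3 on the log2(FPKM + 1) scale had a median of 2.27 over the 11 tested digestive enzyme loci, with values from 1.61 to 3.43, beside a median of 0.554 over all tested loci. Within CG the medians were 1.26 for the enzymes and 0.614 for all loci. Of all tested loci, 4.59% had a range within HG as wide as the enzymes' median, and 16.9% within CG. HG-3 was the highest library labelled HG in 9 of the 11 loci, beside 43.4% of all tested loci, and CG-3 the highest labelled CG in 10 of the 11, beside 26.4%. Exceptions within HG were cpa4, highest in HG-2, and pla2g1b (MSTRG.8110), highest in HG-1 and, among the CG libraries, in CG-1. The complete order of the sum, from HG-1 up to CG-3, was met by 6 of the 11 loci and by 0.542% of all tested loci. This order was read from the sum itself, in which try weighs most, so the agreement of try and the larger loci with it is given as a description.

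**Figure D4:**
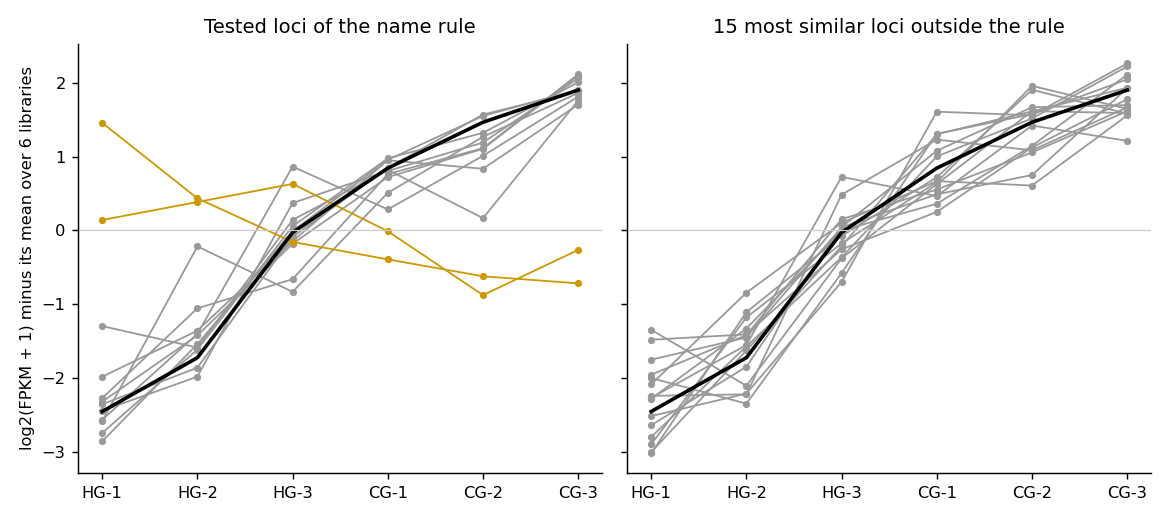
Values of log2(FPKM + 1) in each library, centred on the mean of the 6 libraries, for the 12 tested loci of the set on the left and for the 15 loci outside it with the most similar profile on the right; lines join the values of 1 locus and the black line is the sum of the digestive enzymes. Most lines on the left run close to the black line, with a step up at HG-3 and the highest values in CG, while pla2g1b (MSTRG.8110) and prss16, in orange, run the other way.

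Loci that the name rule had not used gave a further view of the same enzymes. By the enzyme numbers in the table, 44 loci outside the set were annotated as trypsin, chymotrypsin, pancreatic elastase, carboxypeptidase or alpha-amylase. This list was added after the table had been seen. Of its 11 tested loci, 7 were lower in the libraries labelled HG, 1 was higher and 3 did not pass (limma, adjusted p under 0.05), with a median log2 fold change of -2.15. Over all tested loci, 12.1% were lower and 8.27% higher. The groups did not overlap in 9 of the 11, 8 with HG below CG and 1 with HG above, beside 27% and 16.5% of all tested loci. The order of the sum was kept by 4 of the 11 and by 0.542% of all tested loci. The number called lower fell to 2 without HG-1, 1 without HG-2, 2 without CG-1, 2 without CG-2 and 1 without CG-3. The number over all tested loci also fell in each of these fits, as given above.

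A locus with the enzyme number of chymotrypsin (zgc:136461 and zgc:112160, MSTRG.350), the protease that cuts after aromatic residues, had 20.8, 36.8 and 139 FPKM in HG-1, HG-2 and HG-3, against 286, 432 and 441 FPKM in CG-1, CG-2 and CG-3. It was lower without overlap in the libraries labelled HG (log2 fold change -2.96, SE 0.65, adjusted p = 0.0230). Its ratio to try was 0.109, 0.137 and 0.151 in HG and 0.162, 0.148 and 0.121 in CG. Elastase zgc:92745 (MSTRG.19466), more abundant than ela3l, had 22.4, 59.9 and 161 FPKM in HG, against 464, 575 and 718 FPKM in CG (log2 fold change -3.23, SE 0.66, adjusted p = 0.0179). Elastase zgc:92511 (MSTRG.19469) had 19.8, 47.6 and 111 FPKM in HG, against 289, 413 and 674 FPKM in CG (log2 fold change -3.16, SE 0.63, adjusted p = 0.0166). Both elastases had no overlap and the same order of libraries as the sum. Another elastase locus of lower level (MSTRG.1796) had 0.792, 1.60 and 6.72 FPKM in HG, against 9.20, 13.5 and 20.3 FPKM in CG, and was also lower (log2 fold change -2.15, SE 0.56, adjusted p = 0.0391).

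Alpha-amylase, the starch-splitting enzyme of the pancreas, was annotated at 3 tested loci. MSTRG.11122 had 9.80, 39.7 and 82.3 FPKM in HG-1, HG-2 and HG-3, against 144, 328 and 262 FPKM in CG-1, CG-2 and CG-3 (log2 fold change -2.80, SE 0.74, adjusted p = 0.0395). MSTRG.11123 had 5.22, 19.5 and 40.0 FPKM in HG, against 72.0, 179 and 144 FPKM in CG (log2 fold change -2.84, SE 0.70, adjusted p = 0.0331). Both were lower without overlap, and in both CG-2 was the highest library, unlike in the proteases. Their ratio stayed between 0.486 and 0.532 in HG and between 0.502 and 0.552 in CG. Reads shared by similar copies could move this ratio. MSTRG.11119 had 6.30, 11.0 and 57.2 FPKM in HG and 47.6, 93.3 and 80.6 FPKM in CG, with overlap, and did not pass (log2 fold change -2.07, SE 0.75, adjusted p = 0.0950).

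Among the trypsin-annotated loci, MSTRG.15289 was lower in the libraries labelled HG, with 0.404, 0.745 and 0.433 FPKM in HG against 2.98, 2.59 and 6.46 FPKM in CG (log2 fold change -1.64, adjusted p = 0.0157). Its mean in HG was 0.527 FPKM, so it passed the minimum through CG. The loci zgc:92590 (MSTRG.23405, log2 fold change -1.72, adjusted p = 0.109) and MSTRG.14607 (log2 fold change -0.78, adjusted p = 0.0911) did not pass. The only higher locus was cpo (MSTRG.3499), a carboxypeptidase found on intestinal cells in mammals, with 5.38, 9.97 and 10.3 FPKM in HG against 1.12, 3.47 and 3.61 FPKM in CG (log2 fold change 1.39, adjusted p = 0.0452). This call was lost with each of the 6 libraries left out in turn (adjusted p of 0.0580 to 0.126 in limma), with a pseudocount of 0.1 (0.0531), with no minimum (0.101) and under the linear model (0.326). With both kinds of loci added, digestive enzymes made up 0.0865%, 0.164% and 0.488% of all FPKM in HG-1 to HG-3, against 0.927%, 1.37% and 1.82% in CG-1 to CG-3.

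The loci most similar to the summed digestive enzymes were searched among 9423 loci outside the set that reached at least 5 FPKM. Likeness was the root mean square difference over the 6 libraries between centred log2(FPKM + 1) values, and its median over these loci was 1.57. The closest was the chymotrypsin locus MSTRG.350 at 0.179, and 7 of the closest 15 were loci found by enzyme number. Between them stood pglyrp2 (MSTRG.5545), a peptidoglycan recognition protein, at 0.307, with 2.56, 5.89 and 16.3 FPKM in HG against 21.3, 37.3 and 73.8 FPKM in CG (log2 fold change -2.41, adjusted p = 0.0446). The endoribonuclease gene endou (MSTRG.3994) followed at 0.449, with 22.2, 27.6 and 79.5 FPKM in HG against 109, 131 and 296 FPKM in CG (log2 fold change -2.11, adjusted p = 0.0433). Others were tnfaip3 (MSTRG.977), an inhibitor of NF-kappaB signalling, at 0.485, and the uncharacterised si:ch73-86n18.1 at 2 loci (MSTRG.13320 at 0.437 and MSTRG.13319 at 0.526). Further ones were si:dkey-243k1.3 (MSTRG.11961) at 0.550 and the unnamed MSTRG.2770 at 0.388 and MSTRG.7945 at 0.514. Of these, tnfaip3, MSTRG.11961 and MSTRG.7945 reached 5 FPKM only in CG, and MSTRG.7945 had a mean of 0.500 FPKM in HG. MSTRG.2770 had 0.544 and 0.566 FPKM in HG-1 and HG-2. Among the digestive enzyme loci themselves the same distance was 0.0841 for try, which dominates the sum, 0.160 for prss59.1, 0.190 for ela2, 0.719 for PLA2G1B (MSTRG.8107) and 2.34 for pla2g1b (MSTRG.8110).

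The group difference shapes this likeness, so it was also computed on values centred within each label, an alternative chosen after seeing the data. The median over the 9423 loci was then 0.833, and 5 of the closest 15 were loci found by enzyme number, led by elastase MSTRG.1796 at 0.101, chymotrypsin MSTRG.350 at 0.161 and elastase zgc:92511 at 0.182. Loci with no such annotation stood among them, such as apoeb (MSTRG.13164) at 0.198 and scarb2 (MSTRG.5423) at 0.205 (a lysosomal membrane protein). The scarb2 locus was higher in the libraries labelled HG, in contrast to the enzymes. With 3 libraries a label, a shared step at HG-3 is enough to give a small distance.

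Other markers of acinar cells were less uniform than the enzymes. A list of such markers outside the name rule had 18 loci, of which 8 were tested, 3 were lower in the libraries labelled HG and 0 were higher in limma, with a median log2 fold change of -1.11. For this and the lists that follow, the shares over all tested loci were 12.1% lower and 8.27% higher. One of the 3 was chymotrypsin MSTRG.350, counted above by its enzyme number. Another was pdia2 (MSTRG.19347), the protein disulphide isomerase of the pancreas, with 0.565, 1.19 and 1.82 FPKM in HG against 4.11, 2.80 and 8.08 FPKM in CG (log2 fold change -1.40, adjusted p = 0.0424). The last was tmed6 (MSTRG.2003), a cargo receptor of the secretory path (log2 fold change -1.18, adjusted p = 0.0315). This tmed6 locus had 0.351, 0.270 and 0.476 FPKM in HG against 1.39, 2.01 and 3.07 FPKM in CG, and passed the minimum through CG. A further tmed6 locus (MSTRG.2004) was too low to be tested, and its groups overlapped. Another locus with the name zgc:112160 (MSTRG.351) had 0.645, 2.99 and 0.761 FPKM in HG against 0.571, 0.593 and 0.823 FPKM in CG. Unlike MSTRG.350, it was not lower in HG and did not pass in limma (log2 fold change 0.45, adjusted p = 0.454). ERP27 (MSTRG.10460), a chaperone of the endoplasmic reticulum, did not pass, with 0.263, 0.725 and 3.85 FPKM in HG against 5.44, 4.16 and 9.77 FPKM in CG (log2 fold change -1.69, adjusted p = 0.0658). The acinar transcription factor gene ptf1a (MSTRG.24968) was too low to be tested, at 0.0432, 0 and 0.105 FPKM in HG and 0.578, 0.415 and 1.02 FPKM in CG. Its partner rbpjl (MSTRG.14624) had 33.1, 23.8 and 28.4 FPKM in HG and 8.07, 13.8 and 21.9 FPKM in CG, higher throughout in HG, and did not pass either (adjusted p = 0.0931). Most of the tested markers were low, where the 1 added to FPKM shrinks a log2 fold change. With a pseudocount of 0.1, it was -1.97 for pdia2, -2.23 for tmed6 (MSTRG.2003), -2.54 for ERP27 and 1.06 for rbpjl (MSTRG.14624).

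The machinery that packs and releases zymogens had 19 loci on its list, 5 tested, 3 lower and 0 higher, with a median of -1.03. The gene xbp1 (MSTRG.17090), a regulator of secretory capacity used in hepatocytes as well, had 81.2, 68.3 and 146 FPKM in HG-1, HG-2 and HG-3, against 272, 311 and 373 FPKM in CG-1, CG-2 and CG-3 (log2 fold change -1.75, adjusted p = 0.0135). The others were snap23.1 (MSTRG.5393) at -1.62 and rab27a (MSTRG.4784) at -1.03, both genes of vesicle fusion. Of 19 loci for zymogen activators and trypsin inhibitors, 10 were tested, with 2 higher, 3 lower and a median of -0.67. The inhibitors itih2 (MSTRG.10732, log2 fold change 1.56) and ambp (MSTRG.6905, log2 fold change 1.35) are liver plasma proteins and were higher in the libraries labelled HG, and the protease gene ctsla (MSTRG.7069, log2 fold change -2.85) and the inhibitor gene tfpia (MSTRG.5845, log2 fold change -1.05) were lower. Of 28 loci of exocrine pancreas development, 20 were tested, with 2 higher, 5 lower and a median of -0.43. The lower ones with the largest change were rbpjb (MSTRG.12055 at -3.20 and MSTRG.12056 at -2.57), a Notch mediator, xbp1, and prox1a (MSTRG.12640) at -1.57. MSTRG.12056 and MSTRG.12640 had means of 0.436 and 0.559 FPKM in HG and passed the minimum through CG. A more abundant prox1a locus (MSTRG.12639) had 7.80, 13.7 and 7.47 FPKM in HG against 2.77, 7.27 and 6.92 FPKM in CG. It did not pass in limma (log2 fold change 0.72, adjusted p = 0.221), with HG above CG throughout. The higher loci were foxa2 (MSTRG.8672) at 0.84 and pdx1 (MSTRG.5997) at 1.56, while foxa2 MSTRG.8673 did not pass at -0.28.

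Markers of neighbouring tissues were set beside the enzymes, and their part in the enzyme levels was not tested. The duct list (21 loci, 12 tested) had 4 lower and 0 higher, with a median of -0.62, and summed to 256 to 324 FPKM in HG and 630 to 742 FPKM in CG. Its lower loci were the keratins krt8 (MSTRG.11793, log2 fold change -1.45) and krt18 (MSTRG.11791, log2 fold change -1.29), epcam (MSTRG.15079, log2 fold change -1.35) and the bicarbonate transporter slc4a4b (MSTRG.12298, log2 fold change -0.97). HG was below CG throughout in 6 of the 12 and above throughout in 3, beside 27% and 16.5% of all tested loci. The 3 above were aqp1a.1 (MSTRG.529, log2 fold change 1.26) and abcb4 (MSTRG.13589 at 0.53 and MSTRG.13587 at 0.41), which did not pass. The list's sum, mostly that of krt8 and krt18, was 324, 256 and 268 FPKM in HG-1, HG-2 and HG-3. Which cells gave the RNA of krt8, krt18, abcb4 and the other loci on the list was not tested. Neither this sum nor the counts are therefore read as duct content. HG-3 was the highest library labelled HG in 3 of the 12 tested duct loci, slc4a4b among them. Endocrine markers were near 0, with sums of 3.79 to 4.55 FPKM in HG and 4.75 to 10.1 FPKM in CG over 16 loci. Insulin (ins, MSTRG.23289) was listed at 0 in every library labelled HG and at most at 0.537 FPKM in CG. The single endocrine locus tested, pdx1 (MSTRG.5997), a factor of pancreas and gut, was higher in HG, with 3.22, 3.68 and 3.58 FPKM against 0.229, 0.541 and 0.874 FPKM in CG (log2 fold change 1.56, adjusted p = 0.00651), and passed the minimum for testing through HG. The other 15 endocrine loci, all under the minimum, summed to 0.739, 0.866 and 0.202 FPKM in HG-1, HG-2 and HG-3, against 9.90, 4.72 and 3.88 FPKM in CG-1, CG-2 and CG-3. Of these 15, 6 had every library labelled HG below every library labelled CG, among them mnx1 (MSTRG.1821), a factor of islet cells, listed at 0 in HG and at 1.36, 1.93 and 0.822 FPKM in CG. No share was computed over all loci under the minimum, so nothing is drawn from this count of loci near 0.

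Intestinal markers summed to 11.3 to 16.8 FPKM in HG and 9.11 to 12.9 FPKM in CG over 20 loci, with 5 tested, 1 higher (NPC1L1, MSTRG.8027, log2 fold change 1.58), 0 lower and a median of 0.07. Hepatocyte markers had 8 loci higher and 2 lower of 33 tested, with a median of 0.65. The largest changes were in fetub (MSTRG.16419 at -4.42, MSTRG.16416 at 2.79 and MSTRG.16421 at 2.06) and plg (MSTRG.20311) at 2.47. A more abundant plg locus (MSTRG.20307) did not pass, at 0.65 (adjusted p = 0.170 in limma). MSTRG.16419 had a mean of 0.452 FPKM in HG and passed the minimum through CG, with 14.3, 8.43 and 178 FPKM in CG-1 to CG-3. The other lower hepatocyte locus was the abundant hpx (MSTRG.17999), at -1.53 (adjusted p = 0.00410 in limma). It had 8625, 7890 and 5600 FPKM in HG against 20254, 19836 and 22731 FPKM in CG. Of the 5 red blood cell loci tested, 1 was lower (hbbe2, MSTRG.1263) and 0 were higher, with a median of -0.30. The hbbe2 locus had a mean of 0.554 FPKM in HG and passed the minimum through CG. The adipose list had 1 lower (lpl, MSTRG.2445) and 0 higher of 7, with a median of -0.24. Both counts are a single locus, beside 12.1% of all tested loci lower. Of 12 leukocyte and mast cell loci tested, mpx (MSTRG.6837) and kita (MSTRG.2607) were lower, cd79a (MSTRG.23409) was higher, and the median was -0.05. Another mpx locus (MSTRG.6838) did not pass in limma (log2 fold change -1.84, adjusted p = 0.0571). Nor did another kita locus (MSTRG.2608, log2 fold change -0.75, adjusted p = 0.225 in limma). The cd79a locus had a mean of 0.180 FPKM in CG and passed the minimum through HG.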

How the data were processed

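Liver RNA was measured in 6 libraries sampled at 96 h. Per the labels and the paper, the authors mapped paired reads of poly(A) RNA with HISAT, assembled them with StringTie, and deposited FPKM values per locus without counts. Versions and the genome build are not given in the sources used here. The DO level of HG and the fish per tank are given differently in the labels and in the paper, and the labels were followed. The paper calls the libraries biological replicates. Which tank each came from, and whether it was 1 fish or a pool, is not stated. The p-values set the difference between the labels against the spread between these libraries, moderated over all tested loci.

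Values were used as deposited, as log2(FPKM + 1), for loci averaging 1 FPKM or more. The average was over all 6 libraries, so a locus near 0 in 1 group could pass the minimum through the other. The contrast of HG with CG was fitted in limma 3.58.1 (R 4.3.3), using a variance trend (2.86 prior degrees of freedom), two-sided, with Benjamini-Hochberg adjustment over all tested loci at 0.05. Python 3.11.15, numpy 2.4.6, pandas 2.3.3 and matplotlib 3.10.9 served for sums and plots. The fit was tested on simulated data. The members and lists were chosen with earlier results of these data known, and the list by enzyme number after the table was seen. Every member is accounted for, lists name up to 4 loci with an adjusted p under 0.05 and the largest change, and the 15 most similar loci are a fixed number, of which those with the same annotation are counted and not all named. Other list loci named, ERP27, rbpjl, ptf1a, ins and mnx1 among them, were chosen after their values were seen. Of the 15 symbols, 10 matched the RefSeq annotation of O_niloticus_UMD_NMBU, which was used only for neighbouring genes, with no coordinates. Alternatives were a pseudocount of 0.1, no minimum, a minimum mean of 10 FPKM, median of ratios scaling, a Ballgown-style linear model, a replicate block and leaving out each library.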

Additional observations from a re-analysis of the deposited data

How the results depend on the processing

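Of the 11 digestive enzyme loci tested, 8 passed as lower in the libraries labelled HG. The number was 8 with a pseudocount of 0.1, 9 of 10 with a mean of at least 10 FPKM and 6 with median of ratios scaling. With no minimum it was 1 of 13 loci tested, where the number of loci in the adjustment was 31872, and with the Ballgown-style linear model it was 0. Over all loci, 770 of 3319 passed as lower with a mean of at least 10 FPKM, and 1327 of 31872 with no minimum. The number of digestive enzyme loci passing as lower ranged from 1 to 9 with 1 library left out, and the number passing as higher from 0 to 1. Over all tested loci, between 804 and 1434 passed as lower with 1 library left out. The log2 ratio of the summed enzymes, -2.50 with all libraries, ranged from -3.51 to -2.11 with 1 library left out, the lowest without HG-3, and the median log2 fold change from -3.02 to -2.11. Of the 11 tested loci found by enzyme number, 7 passed as lower, against 2 of 44 with no minimum, 0 with the linear model and 1 to 8 with 1 library left out. The log2 fold change was read under the alternatives for most named and tested loci, all tested members included, and none of these changed sign. It was not read for some others, among them prox1a (MSTRG.12639), foxa2 (MSTRG.8672 and MSTRG.8673), aqp1a.1 (MSTRG.529) and abcb4 (MSTRG.13589 and MSTRG.13587). Of the values read under the alternatives, 491 stayed on the same side of the threshold, 239 no longer passed and 16 newly passed. Median of ratios scaling moved the median of all loci to 0.02, beside -0.14, and the calls over all loci to 1583 lower and 1824 higher, beside 1990 lower and 1359 higher.

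Over all tested loci, libraries with the same replicate number did not deviate together (correlations across loci of 0.037, -0.102 and -0.081), so the numbers were not taken to pair them. The summed digestive enzymes differed from this, as they rose from HG-1 to HG-3 and also from CG-1 to CG-3. With the replicate number as a block, 10 of the 11 digestive enzyme loci and 8 of the 11 found by enzyme number passed as lower, and 1093 and 867 of all tested loci passed as lower and higher. HG-1 deviated most like CG-1, and HG-2 and HG-3 most like a library of another number.

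With no read counts per locus in the table, the counting error of the low loci is unknown. With 3 libraries a group, an exact permutation test could not give a p below 0.10, so none was run.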
